A study of Mus musculus with 6 samples.

Results

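Mitochondrial ribosomal protein genes were examined in CD4+ CD25+ cells of mouse spleen, which the labels call regulatory T cells (Treg), from mice with and without Keap1. The series title writes CD4- where the sample labels write CD4+. The members were all transcript clusters of the array that carry a single gene symbol beginning with Mrpl (large subunit) or Mrps (small subunit) followed by a number, with pseudogenes left out. This gave 75 genes, 47 of the large and 28 of the small subunit, of 30024 genes with a cluster of their own. The rule uses gene names and no measured value, but this gene family was picked for description with earlier results of these data known. Of 78 mouse genes that RefSeq names by this pattern, Mrpl30, Mrpl53 and Mrps6 have no cluster of their own, and their clusters also carry another gene.

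The Keap1_KO group holds 3 arrays (B, C and D) from VAVcreKeapfl/fl mice, labelled Keap1 -/-, in which Cre recombinase driven by the Vav promoter removes a floxed Keap1 across blood-forming cells, so that T cells and all other blood cells of the mouse are affected. The WT group holds 3 arrays (A, D and F) from Keap1 +/+ mice, and the labels do not say whether these carry Cre or the floxed allele. All mice were untreated males on C57BL/6, cells were taken from the spleen by magnetic separation, and 40 ng of total RNA was amplified for each array. The age is given as 10 to 12 months in the sample labels but as 6 to 10 weeks in the growth protocol. The labels do not tie each array to its own mouse, and p-values therefore measure only how far these arrays scatter, which may be partly technical. Values are deposited log2 expression values, and differences are Keap1_KO minus WT, so that a difference of 1 is a doubling on the deposited scale.

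Mitochondria have their own ribosome, which translates the few membrane proteins of the respiratory chain that mitochondrial DNA still encodes. Its ribosomal RNAs come from mitochondrial DNA, whereas every one of its proteins is encoded in the nucleus, made in the cytosol and imported. Some of these proteins descend from bacterial ribosomal proteins, and others were added in mitochondria. The large subunit forms peptide bonds and the small subunit reads the messenger RNA. In activated T cells, mitochondrial translation is one of the systems that supply the respiratory chain. KEAP1 holds the transcription factor NRF2 for degradation, and NRF2 binds antioxidant response elements.

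The labels were checked on Keap1 and on Nqo1, a standard NRF2 target. Keap1 read 4.87, 4.89 and 4.70 on Keap1_KO B, C and D, against 5.30, 5.41 and 5.77 on WT A, D and F. Nqo1 read 8.50, 7.55 and 9.14 on the Keap1_KO arrays, against 4.68, 4.69 and 5.03 on the WT arrays. Neither gene overlapped between genotypes, although Keap1 lay below the intensity filter and probes outside the floxed part would not report its loss. All 10 tested genes of the Treg and CD4 T cell list, among them Cd4, Cd3e and Il2ra, were bright, with means between 12.17 and 16.94; Foxp3 has no cluster of its own. Over all 16825 genes tested, pairs of arrays correlated at 0.958 to 0.983 inside a genotype and at 0.927 to 0.988 across genotypes. No gene passed limma's adjusted p threshold of 0.05 (0% called), while the unadjusted p was under 0.05 for 1410 genes with the higher mean in Keap1_KO (8.38%) and 323 with the lower mean (1.92%).

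Nearly every mitochondrial ribosomal protein gene had a higher mean in Keap1_KO cells. A gene was tested when 3 or more of the 6 arrays put it at or above their own median, as was the case for 73 of the 75 members. Of these 73, 70 had a higher mean in Keap1_KO, against 56.5% of all genes tested. The median difference was 0.64, against 0.06 over all genes tested, and the middle part of the members (25th to 75th percentile) ran from 0.40 to 0.89. Differences above 1 were seen in 12 members, against 6.81% of all genes. In bulk RNA, fewer cells of a type and less RNA per cell cannot be told apart. None of the members passed on its own: the limma p adjusted over 16825 genes lay between 0.476 and 0.951, and 7 members had an unadjusted p under 0.05, all with the higher mean in Keap1_KO, against 8.38% of all genes, while none had one with the lower mean, against 1.92%. In 4 of the 73 did every Keap1_KO array exceed every WT array, a share below the 9.11% of all genes, and in none did every Keap1_KO array lie below (4.96% of all genes). Both shares lie below those of all genes, whereas the share with a higher mean and the median lie above.

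**Figure D1:**
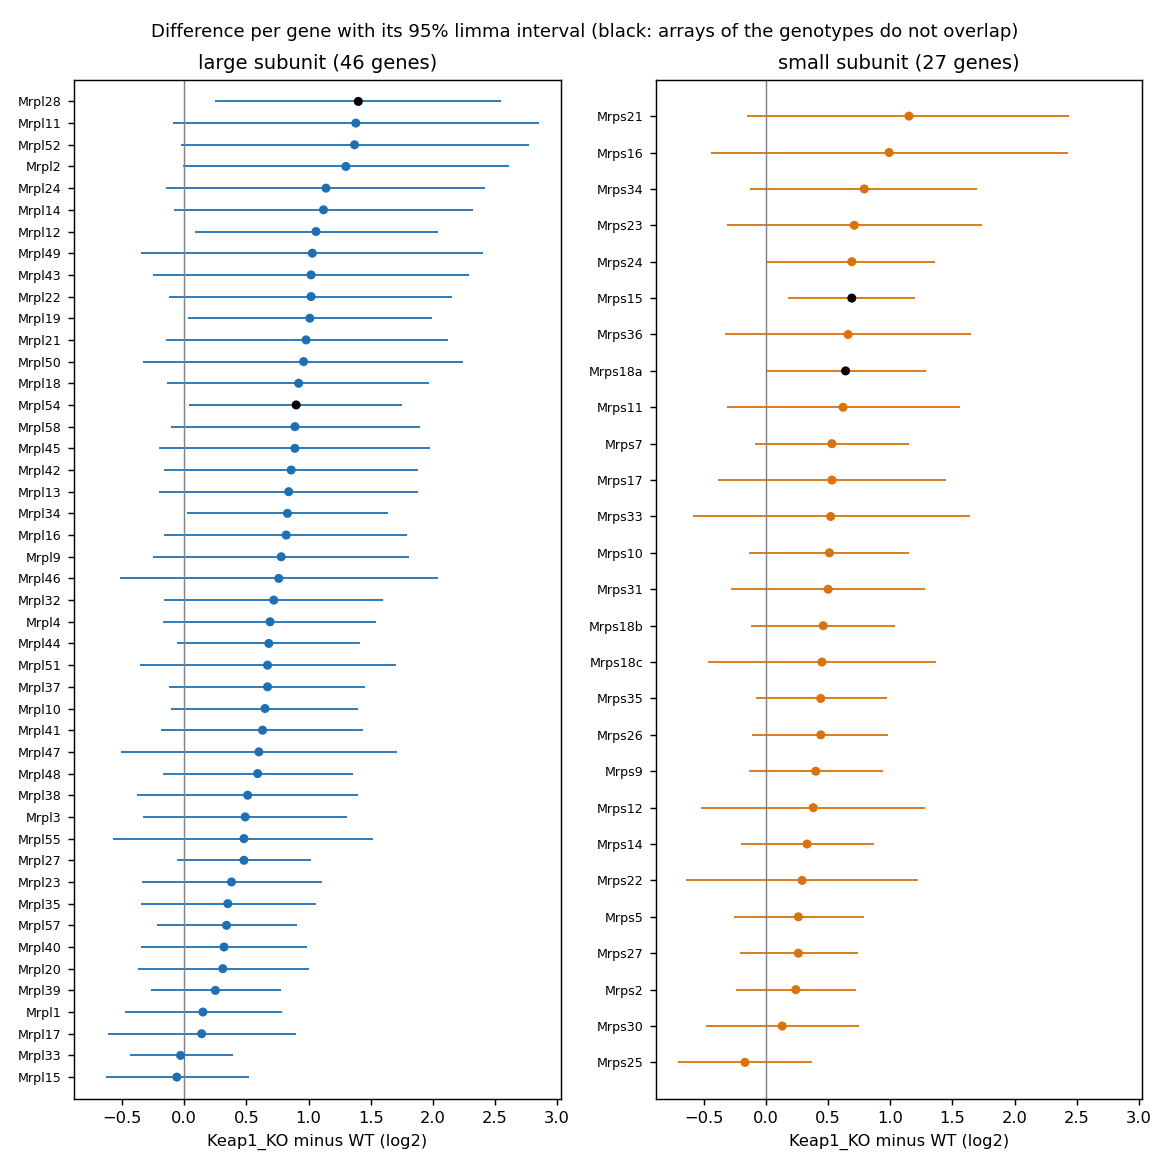
Difference between Keap1_KO and WT (log2, x axis) for each of the 46 large subunit and 27 small subunit genes tested, ordered by size, with the 95% interval of the limma fit. Points lie right of 0 for 70 of 73 genes, most intervals reach 0, and black points mark the 4 genes whose arrays do not overlap between genotypes.

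Most members kept a similar order over the arrays, in which Keap1_KO B stood apart from Keap1_KO C and D. Each member's correlation with the mean of the others over the 6 arrays had a median of 0.94. It was lowest for Mrpl33 (-0.44), Mrps25 (0.15) and Mrpl15 (0.48). Taking each gene's deviation from its own mean over the 6 arrays, the 73 members averaged -0.30, 0.59 and 0.67 on Keap1_KO B, C and D, against -0.28, 0.02 and -0.70 on WT A, D and F. Keap1_KO B thus lay level with WT A and below WT D. On Keap1_KO C 64 of the 73 members exceeded all 3 WT arrays, on Keap1_KO D 67 did, and on Keap1_KO B only 4 did, against 38.2%, 42.3% and 18.9% of all genes. The highest array of a member was Keap1_KO D for 37 and Keap1_KO C for 31 of the 73, and Keap1_KO B for none. The same arrays were highest for 26.2%, 20.6% and 8.4% of all genes. WT F was the lowest array for 62 of the 73 (84.9%), against 34.4% of all genes. The spread between arrays was wider in Keap1_KO, with a median SD of 0.55 against 0.40 in WT. The Keap1_KO SD was the larger for 51 of the 73 (69.9%), against 54.9% of all genes. Over all genes the median SD was 0.30 in Keap1_KO and 0.28 in WT.

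**Figure D2:**
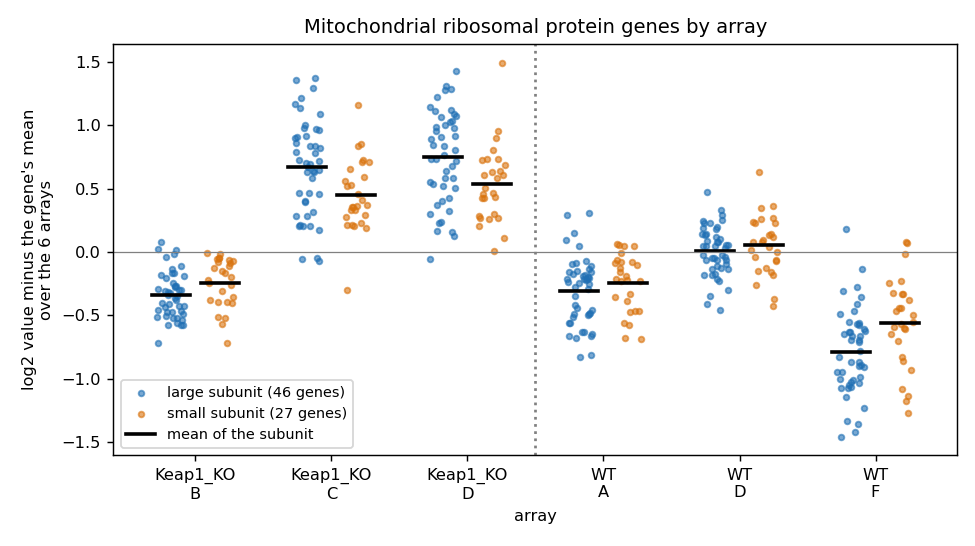
Deviation of each member from its own mean over the 6 arrays (log2, y axis), by array, for 46 large subunit genes (blue) and 27 small subunit genes (orange), with black bars for the mean of each subunit. Keap1_KO C and D sit above 0 with means of 0.45 to 0.75, Keap1_KO B sits with WT A below 0, and WT F is lowest at -0.79 and -0.56.

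Without Keap1_KO B, 63 of the 73 members did not overlap between genotypes, against 31.6% of all genes in that comparison, and without WT D 33 did not, against 23.9%. Without WT F the count was 7, against 11.7%, and after repeated quantile normalization it was 1, against 8.59%. Members with a higher mean and an unadjusted limma p under 0.05 numbered 46 of 73 without Keap1_KO B, against 20.4% of all genes, 16 without WT D, against 10.3%, and 1 without WT F, against 3.47%. There were 0 such members without Keap1_KO C, Keap1_KO D or WT A, against 2.68%, 2.51% and 3.69% of all genes. In the fit without Keap1_KO B, 548 genes (3.31% of those tested) passed the adjusted threshold in the higher direction, and 5 members were among them: Mrpl2, Mrpl11, Mrpl14, Mrpl28 and Mrpl45, all of the large subunit. With limma array weights, which gave Keap1_KO B the lowest weight, 1612 genes (9.58%) passed in the higher direction, among them 14 members, 10 large and 4 small. The number of members with a higher mean stayed between 68 and 72 whichever array was left out.

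Among large subunit proteins, Mrpl28, a homolog of bacterial L28, differed most. It read 7.42, 9.07 and 9.17 on Keap1_KO B, C and D, against 7.05, 7.40 and 7.03 on WT A, D and F. Every Keap1_KO array lay above every WT array, although Keap1_KO B and WT D were nearly level, and the difference was 1.40 (SE 0.48, 2.64-fold). Mrpl54, a protein found in mitochondrial but not bacterial ribosomes, also did not overlap, reading 8.05, 9.23 and 8.84 in Keap1_KO against 8.04, 8.04 and 7.37 in WT (difference 0.90, SE 0.35). Here Keap1_KO B was practically level with WT A and WT D. For Mrpl28 and Mrpl54 an exact permutation test (two-sided) gave 0.1, below which 3 arrays against 3 cannot go.

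Mrpl2 encodes the homolog of bacterial L2, which lies next to the peptidyl transferase centre. It read 8.52, 10.42 and 10.13 in Keap1_KO, against 8.54, 8.83 and 7.81 in WT, a difference of 1.30 (SE 0.54). Keap1_KO B lay inside the WT range, while Keap1_KO C and D stood well above it. Mrpl19, whose bacterial counterpart L19 sits at the interface of the subunits, read 8.11, 9.11 and 9.53 in Keap1_KO and 7.97, 8.27 and 7.46 in WT, a difference of 1.01 (SE 0.41) with Keap1_KO B below WT D. Mrpl34, homolog of the small bacterial protein L34, read 7.15, 7.34 and 8.16 in Keap1_KO and 6.46, 7.19 and 6.52 in WT, a difference of 0.83 (SE 0.34) in which Keap1_KO B and WT D were nearly level.

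The 3 proteins of the stalk that recruits translation factors to the large subunit all had higher means. Mrpl12, whose protein also binds the mitochondrial RNA polymerase in human cells, read 7.22, 8.49 and 8.43 in Keap1_KO and 6.89, 7.45 and 6.61 in WT (difference 1.06, SE 0.41). Mrpl11 read 8.02, 10.09 and 10.17 in Keap1_KO and 7.91, 8.56 and 7.67 in WT, a difference of 1.38 (SE 0.61). Mrpl10, which anchors the stalk, read 8.09, 9.08 and 8.97 in Keap1_KO and 8.11, 8.33 and 7.76 in WT, a difference of 0.65 (SE 0.31). In all of these Keap1_KO C and D exceeded every WT array and Keap1_KO B lay within the WT range.

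The central protuberance, the crown of the large subunit that faces the small one, is represented by 8 members, all with higher means and a median difference of 0.67. Mrpl52 read 8.71, 10.52 and 10.51 in Keap1_KO and 8.56, 9.19 and 7.87 in WT, a difference of 1.37 (SE 0.58). Mrpl58, a built-in peptidyl-tRNA hydrolase that can release stalled chains, read 8.64, 9.63 and 10.02 in Keap1_KO and 8.32, 9.09 and 8.20 in WT, a difference of 0.89 (SE 0.42). Groups overlapped for both, with Keap1_KO B below WT D. The brightest large subunit clusters were Mrpl42, at 14.23 ± 0.61 in Keap1_KO and 13.37 ± 0.63 in WT (SD, n = 3 each), and Mrpl39, at 11.47 ± 0.30 in Keap1_KO and 11.22 ± 0.21 in WT.

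Among small subunit proteins, Mrps15, the homolog of bacterial S15 that binds the ribosomal RNA early in assembly, had the smallest limma p of all members. It read 8.11, 8.72 and 8.58 on Keap1_KO B, C and D, against 7.65, 7.94 and 7.75 on WT A, D and F, a difference of 0.69 (SE 0.21, 1.61-fold) with no overlap and an adjusted limma p of 0.476. Mrps24, the mitochondrial form of bacterial S3 at the messenger RNA entry, read 9.62, 10.33 and 10.11 in Keap1_KO and 9.0, 9.76 and 9.24 in WT (difference 0.69, SE 0.28). Mrps21, homolog of bacterial S21, had the largest difference of the subunit, reading 10.96, 12.52 and 12.31 in Keap1_KO and 10.67, 11.59 and 10.09 in WT (1.15, SE 0.54). Its arrays also differed widely within each genotype, and Keap1_KO B lay below WT D.

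Mrps34, a mitochondria-specific protein, read 7.14, 8.40 and 8.28 in Keap1_KO and 6.98, 7.55 and 6.94 in WT, a difference of 0.79 (SE 0.38). Mrps7, homolog of S7 in the head of the subunit, read 6.76, 7.12 and 7.65 in Keap1_KO and 6.68, 6.78 and 6.47 in WT, a difference of 0.53 (SE 0.26). Mrps35 read 8.11, 8.80 and 8.57 in Keap1_KO and 8.08, 8.12 and 7.94 in WT, a difference of 0.44 (SE 0.22). In each of these only Keap1_KO B fell within the WT range. The brightest cluster of the subunit was Mrps18c, at 12.99 ± 0.66 in Keap1_KO and 12.54 ± 0.41 in WT (SD, n = 3 each).

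**Figure D3:**
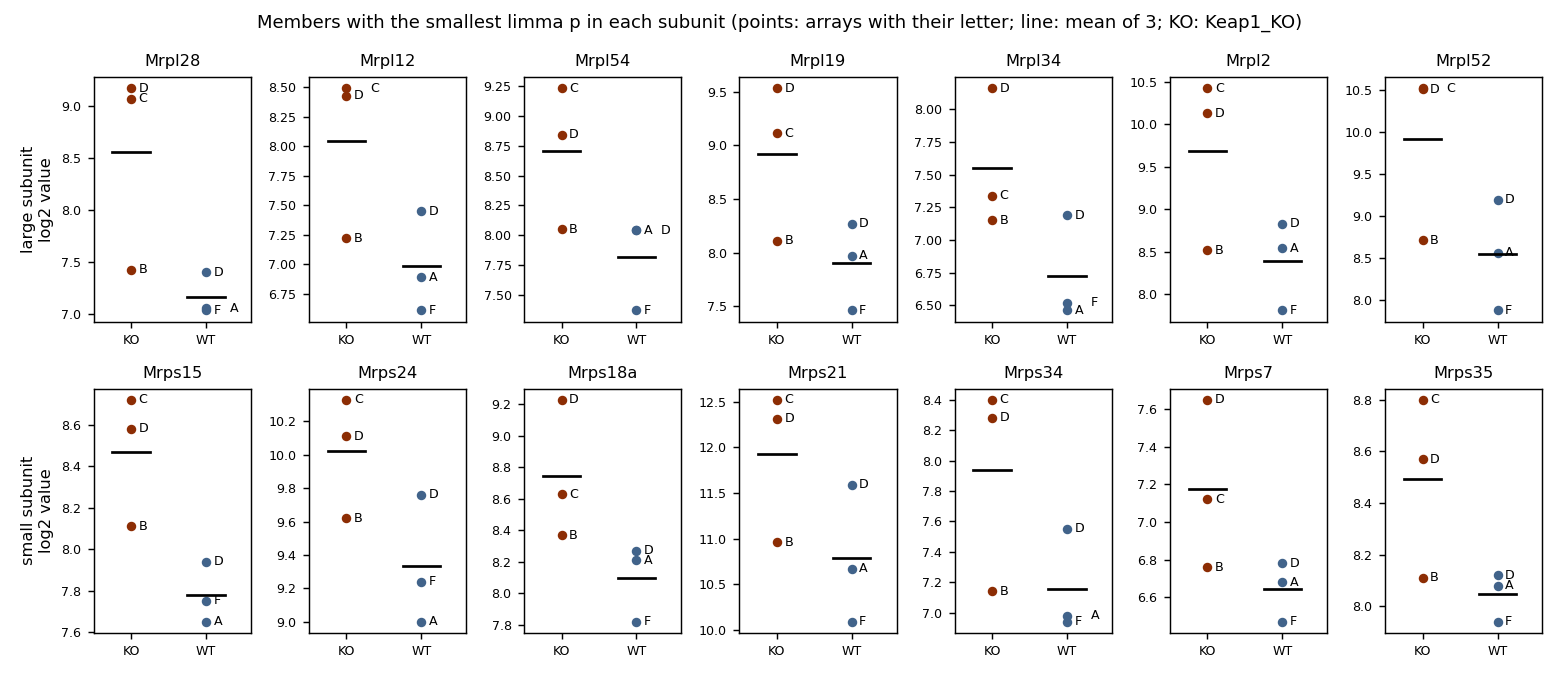
Log2 value on each array (letters) for the 7 members with the smallest limma p in each subunit, Keap1_KO left and WT right, with the mean of 3 arrays as a line; the y axes differ between genes and do not start at 0. Keap1_KO C and D lie at the top of nearly every panel, Keap1_KO B lies close to the WT arrays, and only Mrpl28, Mrpl54, Mrps15 and Mrps18a show no overlap.

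Of the 73 members tested, 3 had a lower mean in Keap1_KO. Mrps25, a mitochondria-specific small subunit protein, read 8.66, 8.58 and 9.15 in Keap1_KO against 8.81, 9.23 and 8.86 in WT (difference -0.17, SE 0.22). Mrpl15, homolog of bacterial L15, read 10.78, 10.89 and 11.06 in Keap1_KO and 10.85, 11.41 and 10.63 in WT (difference -0.06, SE 0.24). Mrpl33 read 6.66, 6.51 and 6.52 in Keap1_KO and 6.36, 6.65 and 6.76 in WT (difference -0.03, SE 0.17), and its cluster is annotated to several Entrez genes, so it may also report copies. Mrpl15 and Mrpl33 changed sign to 0.06 and 0.09 when each array was centred on its median. Small differences with the higher mean in Keap1_KO were those of Mrpl17 (0.14, SE 0.31) and Mrps2, homolog of bacterial S2 (0.24, SE 0.20). For all of these the 95% limma intervals include 0, and that of Mrps25 runs from -0.71 to 0.37.

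Mrpl36 and Mrps28, homologs of bacterial L36 and S1, did not pass the intensity filter, reaching the array median on 2 arrays each. Mrpl36 read 4.75, 5.59 and 6.05 in Keap1_KO and 4.84, 5.16 and 4.24 in WT. Mrps28 read 4.63, 5.92 and 5.85 in Keap1_KO and 4.87, 4.99 and 4.56 in WT. In the fit without the filter they differed by 0.72 (SE 0.39) and 0.66 (SE 0.37), with overlap. The cluster that Mrps6 shares with Slc5a3 read 9.06, 8.17 and 8.97 in Keap1_KO against 9.21, 9.50 and 9.10 in WT and is not attributed to either gene. The 4 pseudogene clusters left out, Mrpl23-ps1, Mrpl48-ps, Mrps36-ps1 and Mrps36-ps2, had the same order of arrays at their ends, highest on Keap1_KO C and lowest on WT F, with differences from 1.27 to 2.91. Probes may not separate such copies from the genes they resemble.

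The median difference was larger for large than for small subunit genes. The median was 0.74 (1.67-fold) over the 46 large subunit genes and 0.50 (1.41-fold) over the 27 small subunit genes, a gap of 0.24, and the small subunit median was 0.28 without WT F. Of the 12 members with a difference above 1, 11 were of the large subunit and Mrps21 was the other. Large subunit genes deviated from small subunit genes by a mean of -0.10, 0.22 and 0.21 on Keap1_KO B, C and D, against -0.06, -0.05 and -0.23 on WT A, D and F. Large subunit genes therefore lay further from 0 than small subunit genes on the arrays at either end, and Keap1_KO B did not differ from WT in this respect. Subunits share their arrays, and the gap has no test of its own.

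The gap did not follow the bacterial ancestry of the proteins in a simple way. Median differences were 0.78 for 27 large subunit genes listed with a bacterial homolog and 0.68 for 19 not so listed. For small subunit names they were 0.52 for 14 so listed and 0.46 for 13 not so listed. Those 13 include Mrps18a, Mrps18b, Mrps30 and Mrps36, whereas Mrps18c was listed with a homolog. Some proteins carry a small subunit name but belong elsewhere: Mrps18a and Mrps30 sit on the large subunit, and Mrps36 is a component of the oxoglutarate dehydrogenase complex. Mrps18a read 8.37, 8.63 and 9.23 in Keap1_KO and 8.21, 8.27 and 7.82 in WT, without overlap (difference 0.64, SE 0.27). Mrps30 differed by 0.13 (SE 0.25) and Mrps36 by 0.66 (SE 0.41), with overlap. With these moved to where the proteins belong, the gap was 0.22. Across the 73 members, the difference had a Spearman correlation of 0.07 with the mean level, given as a description because genes measured on the same arrays are not independent.

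Both closest comparison lists were high on Keap1_KO C and D and lowest on WT F, the respiratory chain list at about the size of the members and the cytosolic ribosomal list at a smaller one. Nuclear-encoded subunits of the respiratory chain, the complexes that mitochondrial ribosomes help to build, had a median difference of 0.67, with 73 of 78 tested genes higher and 1 without overlap. Ndufs8, a complex I subunit, led them at 9.16, 12.08 and 12.27 in Keap1_KO against 8.61, 9.68 and 7.60 in WT. Cytosolic ribosomal proteins, which make the mitochondrial ones, had a median of 0.31, with 31 of 33 tested genes higher and none without overlap. Rpl8 was an exception among them, at 14.45, 16.61 and 16.79 in Keap1_KO against 13.68, 15.17 and 13.92 in WT. Only the 35 cytosolic ribosomal protein genes with a cluster of their own entered this list. Mean levels of the 33 tested ran from 7.23 to 19.26, with a median of 15.1. Near the top of the deposited scale, 19.93, a difference may not be visible. No gene of either list passed the adjusted limma threshold, and no test was made between lists. Over all genes tested, 56.5% had a higher mean, and in 9.11% every Keap1_KO array exceeded every WT array.

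**Figure D4:**
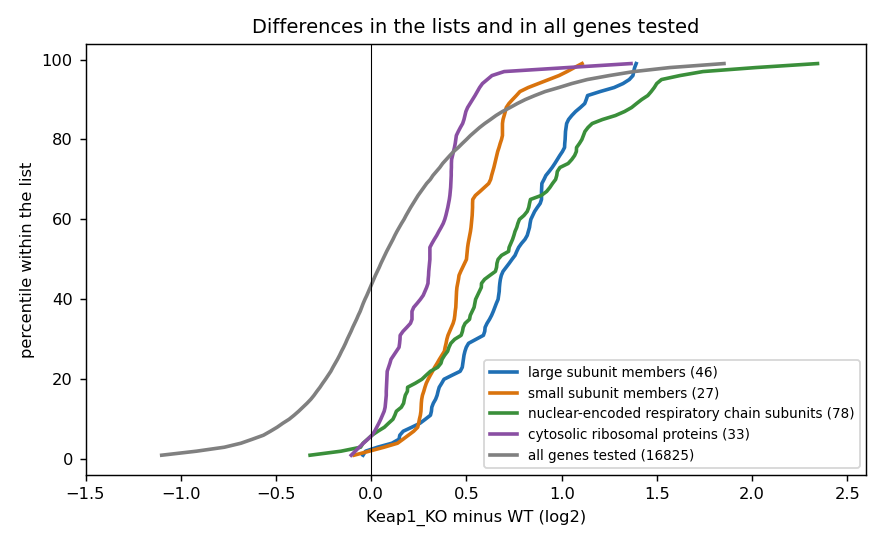
Percentiles (y axis) of the difference between Keap1_KO and WT (log2, x axis) for large and small subunit genes, respiratory chain subunits, cytosolic ribosomal proteins and all genes tested, with the number of genes in brackets. Large subunit genes run close to the respiratory chain subunits (medians 0.74 and 0.67), small subunit genes follow at 0.50 and cytosolic ribosomal proteins at 0.31, while all genes centre on 0.06.

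Mitoribosome proteins with other names behaved alike in part. Dap3, a GTP-binding small subunit protein, read 8.81, 9.56 and 9.53 in Keap1_KO and 8.66, 8.71 and 8.52 in WT, without overlap (difference 0.67, SE 0.24). Gadd45gip1, a large subunit protein, differed by 0.69 (SE 0.29) and Chchd1 by 0.77 (SE 0.47). Ptcd3, which binds messenger RNA on the small subunit, differed by -0.06 (SE 0.16). The ribosomal RNA of the small subunit, mt-Rnr1, read 19.61, 19.52 and 19.56 in Keap1_KO and 19.61, 19.51 and 19.61 in WT. These values are close to the top of the deposited scale, 19.93, where a difference may not be visible.

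Factors that build or serve the mitochondrial ribosome had smaller median differences than its proteins. Over all genes tested, 56.5% had a higher mean and the median was 0.06. All 28 assembly factors were tested, 24 had a higher mean and the median was 0.23. Noa1, a GTPase of small subunit assembly, differed by 0.74 (SE 0.50), and Tfb1m, which methylates the small subunit RNA, by -0.53 (SE 0.38). Of 15 translation factors 11 had a higher mean and the median was 0.14. The elongation factor gene Tufm was their extreme, at 9.68, 10.80 and 11.20 in Keap1_KO against 9.19, 9.75 and 8.47 in WT (difference 1.42, SE 0.49). Of 18 genes on the list of mitochondrial tRNA synthetases 14 were higher, with a median of 0.20, and the largest differences belonged to Kars (1.01), which serves both cytosol and mitochondria, and Qars (1.0), which serves the cytosol.

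Transcription and RNA decay factors of mitochondria had a median of 0.23 over 16 genes, with 1.46 (SE 0.65) for Hsd17b10, a subunit of mitochondrial RNase P, 1.01 (SE 0.46) for the elongation factor Tefm and 0.57 (SE 0.39) for Tfam, which packages mitochondrial DNA. General mitochondrial proteins had a median of 0.25, with 14 of 16 higher, among them the outer membrane channel gene Vdac3 (1.54, SE 0.56) and citrate synthase, Cs (1.09, SE 0.45). Nuclear transcription factors known to drive mitochondrial genes had a median of -0.15, with 3 of 9 higher. Over all genes tested, 56.5% had a higher mean. Gabpa, the DNA-binding ETS subunit, read 11.95, 11.23 and 11.34 in Keap1_KO and 12.29, 12.41 and 11.78 in WT (difference -0.65, SE 0.27), with Keap1_KO B above WT F. Myc differed by 0.63 (SE 0.45) and Yy1 by -0.41 (SE 0.24). No gene of these lists passed the adjusted limma threshold, the lowest adjusted p being 0.476.

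Markers of other blood cells also differed between these arrays. All 14 tested neutrophil markers had higher means in Keap1_KO (median difference 1.65), against 56.5% of all genes. The 15 with a cluster averaged 7.40, 9.07 and 10.99 (log2) on the Keap1_KO arrays, against 7.27, 8.28 and 7.56 on WT A, D and F. Mpo, the myeloperoxidase gene, read 6.90, 9.37 and 9.82 in Keap1_KO against 6.15, 6.35 and 6.18 in WT. NK cell markers averaged 8.04, 8.15 and 9.55 in Keap1_KO and 8.18, 9.19 and 6.93 in WT, and B cell markers 7.43, 6.62 and 8.01 in Keap1_KO and 6.87, 7.92 and 6.13 in WT. Keap1_KO D was the highest array for each of these 3 lists, and WT F the lowest for NK and B cell markers. CD8 T cell markers, Cd8a and Cd8b1, averaged 6.67, 8.32 and 8.38 in Keap1_KO and 6.99, 7.79 and 6.34 in WT, with Keap1_KO C and D at the top and WT F at the bottom, as for the members. Plasma cell markers averaged 7.34, 8.10 and 8.94 in Keap1_KO and 7.46, 8.07 and 7.19 in WT. Macrophage and monocyte markers averaged 6.49, 6.71 and 7.11 in Keap1_KO and 6.34, 6.85 and 6.06 in WT. Their median difference over the 8 tested was only 0.15. Lyz2, the lysozyme gene, stood apart with a difference of 2.86 (SE 1.63), followed by Vcam1 (1.06) and Ly6c2 (0.60). Both of these lists were highest on Keap1_KO D and lowest on WT F. Erythroid markers averaged 6.35, 6.82 and 6.95 in Keap1_KO and 6.50, 6.45 and 6.89 in WT, without that order. The 10 Treg and CD4 T cell genes averaged 14.34, 15.05 and 15.01 in Keap1_KO and 14.11, 14.41 and 14.06 in WT. Their median difference was 0.88, above the 0.64 of the members, and 8 had a higher mean. Lat (1.12), Cd4 (1.04) and Cd5 (0.99) differed most, whereas Il2ra (-0.05), Ctla4 (0.08) and Ikzf2 (-0.11) lay near 0. Without Keap1_KO D the medians of the mitochondrial ribosomal protein genes were 0.52 (large) and 0.35 (small). The part of these cells in the result was not tested.

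**Figure D5:**
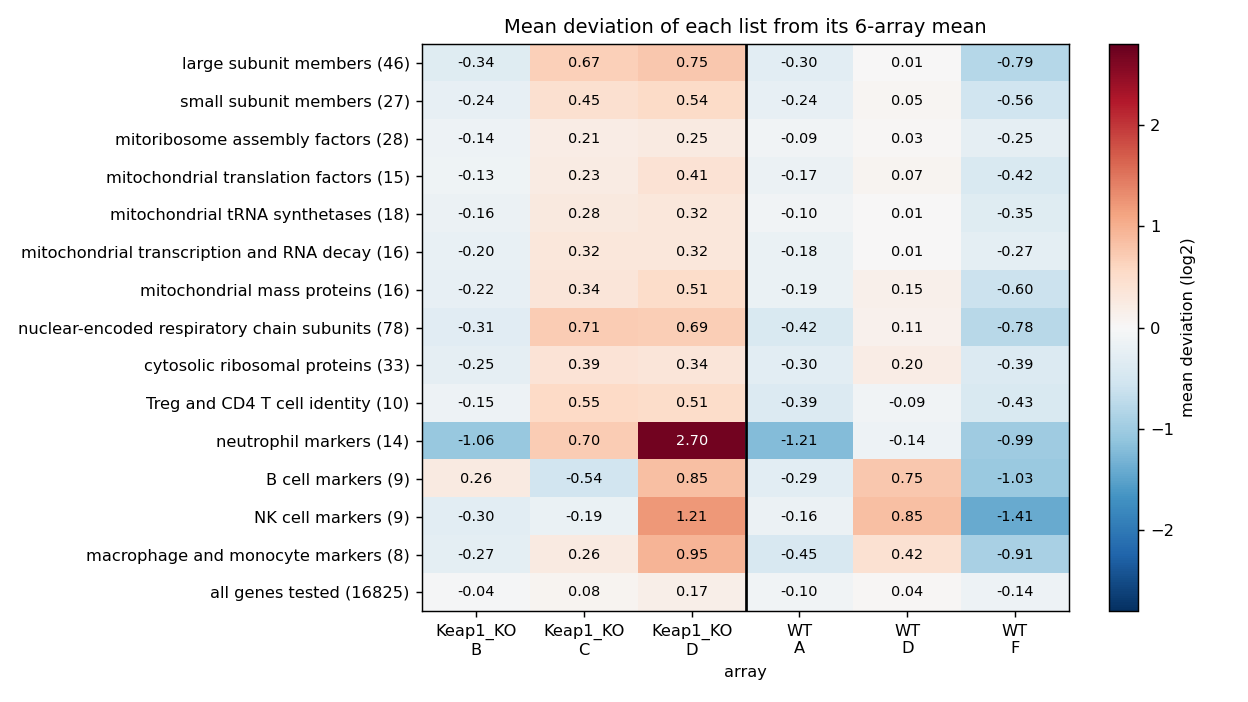
Mean deviation (log2, colour and number) of each gene list from its own mean over the 6 arrays, by array, with Keap1_KO left of the line, WT right of it and the number of genes tested in brackets. The mitochondrial, ribosomal and T cell lists drawn here, which leave out biogenesis transcription factors and mt-Rnr1, are above 0 on Keap1_KO C and D and below 0 on Keap1_KO B, WT A and WT F, and neutrophil markers reach 2.70 on Keap1_KO D.

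Promoters of the members were also searched for motifs. RefSeq promoters (GRCm38.p6, 250 bases before to 50 after the annotated start) were at hand for 66 of the 75 members and for 27025 genes in all, of which 17492 code for protein. Motifs were searched as exact letters on both strands. The antioxidant response element core TGACNNNGC, the motif of NRF2, was found in 13 of 66 member promoters (19.7%), against 14.8% of protein-coding genes. The motif of NRF1 (nuclear respiratory factor, a protein unrelated to the KEAP1 partner NRF2) was found in 12 members (18.2%), against 7.2%. The ETS motif CCGGAAGT, bound by GABPA, was found in 12 (18.2%), against 5.7%. The YY1 motif AAGATGGCG was found in 8 members (12.1%), against 2.1%, and the E-box CACGTG, bound by MYC, in 5 (7.6%), against 8.9%. Median differences of tested members with and without a match were 0.82 and 0.60 for the antioxidant core, 0.70 and 0.62 for NRF1, and 0.48 and 0.65 for ETS. They were 0.64 and 0.62 for YY1, and 0.56 and 0.63 for the E-box. A match of this kind is a description of letters, not a binding site.

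The promoters of 5 members with small limma p are printed with matches in capitals, to show which motif each holds. Mrps15 (chr4:126046678-126046977, plus strand) holds an antioxidant core match, GCAAGGTCA on the printed strand, at base -127, counted from the start. Mrpl28 (chr17:26123253-26123552, plus strand), the member with the largest difference, holds none of the 5 motifs. Mrpl12 (chr11:120484387-120484686, plus strand) holds an NRF1 match at base -81. Mrpl34 (chr8:71464676-71464975, plus strand) holds an antioxidant core match at base 5, and Mrps24 (chr11:5707652-5707951, minus strand) a YY1 match at base 37.
Mrps15: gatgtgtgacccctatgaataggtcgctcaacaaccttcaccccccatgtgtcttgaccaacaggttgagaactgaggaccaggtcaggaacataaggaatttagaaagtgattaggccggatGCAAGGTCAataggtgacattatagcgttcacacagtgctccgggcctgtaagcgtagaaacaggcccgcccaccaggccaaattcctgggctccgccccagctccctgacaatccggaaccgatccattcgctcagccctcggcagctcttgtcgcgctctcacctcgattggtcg
Mrpl28: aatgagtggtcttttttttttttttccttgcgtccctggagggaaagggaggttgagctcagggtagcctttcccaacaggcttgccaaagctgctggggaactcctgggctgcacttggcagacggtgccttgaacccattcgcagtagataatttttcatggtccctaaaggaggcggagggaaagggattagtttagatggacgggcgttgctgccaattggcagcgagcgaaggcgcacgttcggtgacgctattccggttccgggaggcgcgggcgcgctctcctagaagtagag
Mrpl12: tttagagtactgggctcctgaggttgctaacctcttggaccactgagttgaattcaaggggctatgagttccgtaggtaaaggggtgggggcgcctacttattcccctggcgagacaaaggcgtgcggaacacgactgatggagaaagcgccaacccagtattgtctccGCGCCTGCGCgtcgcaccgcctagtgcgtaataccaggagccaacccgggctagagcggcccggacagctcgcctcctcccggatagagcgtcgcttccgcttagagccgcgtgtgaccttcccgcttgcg
Mrpl34: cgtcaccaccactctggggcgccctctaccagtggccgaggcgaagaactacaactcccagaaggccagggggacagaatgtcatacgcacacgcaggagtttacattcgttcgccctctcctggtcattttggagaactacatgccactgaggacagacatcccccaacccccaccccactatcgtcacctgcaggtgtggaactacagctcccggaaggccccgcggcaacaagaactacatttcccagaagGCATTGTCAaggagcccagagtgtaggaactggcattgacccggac
Mrps24: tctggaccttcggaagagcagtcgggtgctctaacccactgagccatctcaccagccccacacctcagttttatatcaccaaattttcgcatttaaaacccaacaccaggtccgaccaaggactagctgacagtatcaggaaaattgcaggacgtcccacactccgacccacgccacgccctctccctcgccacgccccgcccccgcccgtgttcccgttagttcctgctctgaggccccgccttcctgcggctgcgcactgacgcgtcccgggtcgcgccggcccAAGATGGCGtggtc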

How the data were processed

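RNA of 6 samples was measured on expression arrays. The deposited log2 values are 1 per transcript cluster and array. The submitters' processing notes list RMA, Transcriptome Analysis Console and Affymetrix Expression Console, without versions or roles. Values reach 19.93, above the 16 a 16-bit scanner allows, in 1268 of 65528 clusters, so an unstated rescaling was made. No source used here gives a genome build. A single gene symbol was carried by 30354 clusters, from GEO's platform annotation, and was updated through the Entrez identifier.

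A cluster was tested when at or above its array's median on at least 3 arrays, and the brightest cluster stood for a gene. Differences between Keap1_KO and WT were tested with limma 3.58.1 in R 4.3.3 (lmFit and eBayes, two-sided, Benjamini-Hochberg over 16825 genes, threshold 0.05), checked on simulated data, and single genes by an exact permutation test. The number of arrays limits the precision. The members, lists and tests were chosen with earlier results of these data known. Genes named are the 7 with the smallest p, the 3 with the lowest difference and the 2 brightest per subunit, members below the filter or of special place, and the largest differences of other lists. Mrpl1, Mrpl14, Mrpl45, Mrpl58, Mrps18b, Mrps22, Il2ra, Ctla4 and Ikzf2 were named after their values were seen. Alternatives were array centring, repeated quantile normalization, other intensity filters, array weights, the mean of a gene's clusters, platform symbols and leaving out each array.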

Additional observations from a re-analysis of the deposited data

How the results depend on the processing

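Under 13 alternatives the medians of both subunits stayed above 0 and the large subunit median stayed above the small one. Leaving out 1 array at a time gave 0.52 to 1.07 for the large subunit, 0.28 to 0.74 for the small subunit and 0.17 to 0.33 for the gap. The same fits gave 0 to 575 genes past the adjusted threshold, 4 to 63 members without overlap and 68 to 72 members with a higher mean, and both 575 and 63 came without Keap1_KO B. With limma array weights, which gave Keap1_KO B the lowest weight (0.35) and WT A the highest (3.38), 1880 genes passed, 1612 of them higher in Keap1_KO (9.58% of genes tested), and 14 members were among these. After repeated quantile normalization 1 member was left without overlap, against 8.59% of all genes. Centring each array on its median gave a median of 0.17 over all genes, where the values as deposited gave 0.06, and relative to all genes the subunit medians were 0.68 (large) and 0.44 (small) before and after. Of 947 member values recomputed, 15 changed sign, in 5 members, among them Mrps22 with a difference of 0.29. Mrpl15 became 0.06 on centring and 0.04 with array weights, Mrpl17 -0.03 with array weights, and Mrpl33 0.09 on centring and 0.08 with array weights and after quantile normalization. Leaving out 1 array at a time gave -0.01 to 0.36 for Mrpl1, -0.22 to 0.17 for Mrpl15, -0.17 to 0.33 for Mrpl17, -0.14 to 0.06 for Mrpl33 and -0.0042 to 0.65 for Mrps22. The cause was not tested. No paired analysis was possible because the groups share only the replicate letter D.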
